A study of Mus musculus with 4 samples.

Results

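Genes of blood coagulation and of fibrinolysis that leukocytes are known to transcribe were followed in whole tibial bone marrow of obese mice. The 9 genes, F3, F5, F7, F10, F2r, Plau, Plaur, Serpinb2 and Tfpi, were taken by their gene names, and all 9 were found among the 55401 annotated genes of the deposited tables. The 4 libraries came from male wild-type (WT) C57/B6 mice that were 8 weeks old when the high-fat diet (HFD) began, and every mouse stayed on that diet. In the obesity group (Ob, n = 2) nothing else was done, while in the exercised group (Ob + Exe, n = 2) obesity was combined with treadmill running over 12 weeks. The comparison of Ob + Exe with Ob therefore asks what training changed in the marrow of mice that were all obese when the running began. No lean mouse is part of it. The paper reports lower body weight and less fat in the exercised mice after training, and running and lower weight cannot be told apart here. Each value is a sum over all marrow cells, so fewer cells of a type and less RNA per cell cannot be told apart.

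Coagulation starts when tissue factor, the product of F3, meets factor VII in the blood. Their complex activates factor X, which with factor V as its cofactor turns prothrombin into thrombin, and the inhibitor made by Tfpi shuts down the tissue factor complex. Thrombin cuts fibrinogen and signals to cells through protease-activated receptors such as PAR1, which F2r encodes. Urokinase (Plau), held at the cell surface by its receptor (Plaur), makes the plasmin that dissolves fibrin, and plasminogen activator inhibitor type 2 (Serpinb2) restrains urokinase. Most soluble factors come from the liver, but monocytes and macrophages are well known for tissue factor, factor VII, factor X and the urokinase system, and megakaryocytes for factor V.

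None of the 9 genes passed the thresholds of the study's methods, an unadjusted p under 0.05 together with a log2 fold change beyond 1. Across all 18596 genes tested with limma 3.74% passed them, and 0 genes had a Benjamini-Hochberg adjusted p under 0.05. For the 9 genes the adjusted p in limma ran from 0.96 to 0.992, and 0 of them had an unadjusted p under 0.05. With limma voom on read equivalents 0 of the 9 were called and 2, Plaur and Tfpi, had an unadjusted p under 0.05. After training 5 genes had a positive and 4 a negative log2 fold change, with a median of 0.09 against -0.02 over all genes tested. In 6 of the 9 genes the 2 groups did not overlap, 4 with Ob + Exe above Ob (F7, F10, Plau and Plaur) and 2 with Ob + Exe below Ob (Tfpi and Serpinb2). Such a separation was found in 32.6% of all genes tested, 14.3% upward and 18.4% downward. An exact permutation test of a single value with 2 libraries against 2 cannot give a two-sided p below 0.3333.

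Values are FPKM, fragments per kilobase of transcript relative to the size of the library, summed over the transcripts of a gene and scaled between the libraries with factors of 0.945 to 1.04. Fold changes were computed on log2(scaled FPKM + 0.1), so that changes of weakly expressed genes are understated. Depth is given as read equivalents, coverage times transcript length over a read length of 150 bases. These came to 53038186 and 50423542 in Ob against 44310505 and 46668748 in Ob + Exe. Fewer genes were listed above 0 in Ob + Exe (17752 and 19291) than in Ob (23309 and 20663). Among genes with a mean of at least 1 FPKM, the Ob + Exe pair was the least alike of all pairs of libraries (correlation across genes 0.900), and the Ob pair reached 0.949. The labels name bone marrow and also, as cell line and cell type, mesenchymal stem cells and fibroblast. In the tables the summed FPKM of 10 neutrophil markers was 27121 to 63417, while that of 10 stromal and bone markers was 115 to 182. The libraries are therefore described as whole marrow.

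**Figure D1:**
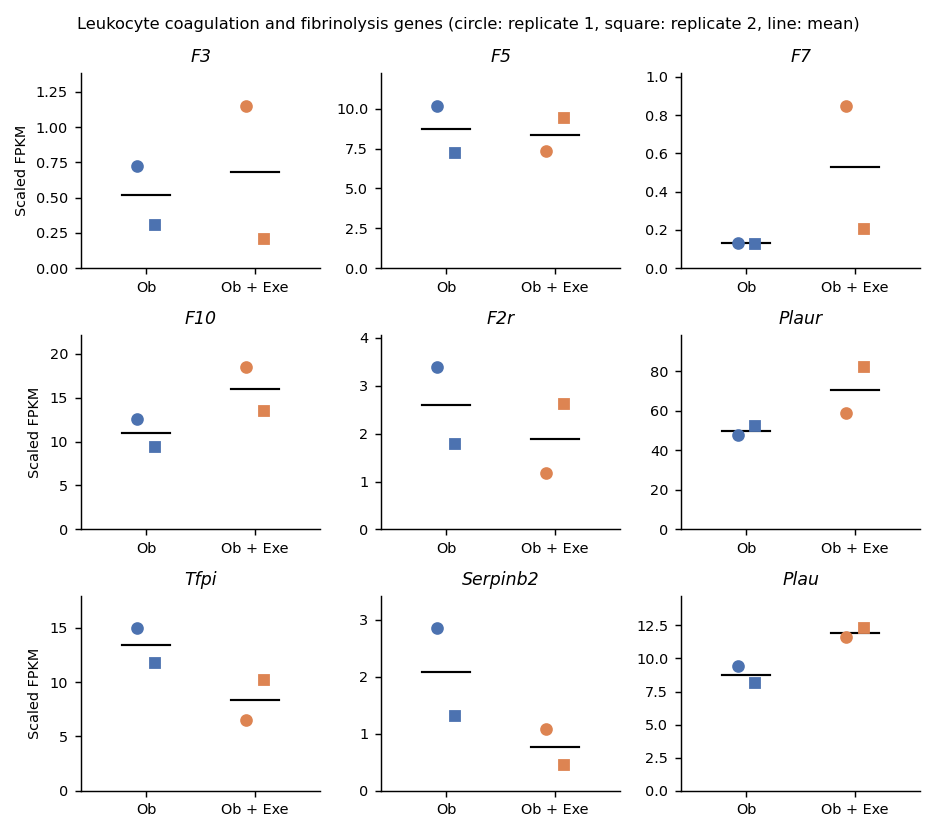
Scaled FPKM (vertical axes, from 0, a separate scale for each gene) of the 9 genes in the 2 Ob and the 2 Ob + Exe libraries. Circles are replicate 1, squares replicate 2 and lines the group means. Both Ob + Exe libraries lie above both Ob libraries for F7, F10, Plau and Plaur and below them for Tfpi and Serpinb2, and the groups overlap for F3, F5 and F2r.

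Per length, Plaur had the highest level, from 47.9 to 82.1 scaled FPKM over the 4 libraries, above every value of the other 8 genes. F10 (9.42 to 18.5), Tfpi (6.48 to 14.9), Plau (8.11 to 12.3) and F5 (7.25 to 10.2) followed, and their ranges overlapped, so no order is given among them. F2r (1.17 to 3.39) and Serpinb2 (0.445 to 2.85) lay below these 4 and overlapped each other. The lowest levels belonged to F3 (0.207 to 1.15) and F7 (0.129 to 0.849), whose ranges also overlapped each other and that of Serpinb2. In terms of all genes tested, the mean FPKM of Plaur was at percentile 94.7 and that of F7 at percentile 17.9. Summed over all transcripts, Plaur exceeded Plau 5.09- and 6.43-fold in Ob and 5.06- and 6.69-fold in Ob + Exe. In Ob + Exe replicate 1, however, the transcript that encodes the receptor had 11.6 scaled FPKM, the same after rounding as Plau, and most of the rest was a transcript with no coding part.

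F3 (ENSMUSG00000028128.13) occupies 121723537 to 121735048 on chromosome 3 of GRCm38 (plus strand) and encodes tissue factor, the membrane protein that starts coagulation. Its scaled FPKM was 0.726 and 0.308 in Ob against 1.15 and 0.207 in Ob + Exe, from 87, 39, 127 and 21 read equivalents. The 2 Ob + Exe libraries held the highest and the lowest value of all, so the groups overlapped. The log2 fold change of 0.09 (standard error 0.868, 95% interval -2.05 to 2.24) carries no direction, since it was -0.93 without Ob + Exe replicate 1, -0.42 without Ob replicate 2 and 1.10 without Ob + Exe replicate 2. At this depth a change of F3 in either direction of up to about 2 on the log2 scale is within the interval.

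F7 (ENSMUSG00000031443.7), on the plus strand of chromosome 8 from 13026034 to 13035809, encodes the protease that tissue factor activates. It was listed at 0.130 and 0.129 scaled FPKM in Ob against 0.849 and 0.207 in Ob + Exe, from 17, 16, 93 and 21 read equivalents. Both Ob + Exe values were above both Ob values, but Ob + Exe replicate 1 stood far from the other 3 libraries. Its log2 fold change of 1.24 (standard error 0.821, 95% interval -0.79 to 3.26) had an adjusted p of 0.96 in limma. It was 0.415 without Ob + Exe replicate 1 and 2.05 without Ob + Exe replicate 2, where F7 passed the thresholds (adjusted p = 0.370 in limma). F3 and F7 were thus both highest in Ob + Exe replicate 1.

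Tfpi (ENSMUSG00000027082.15) is on the minus strand of chromosome 2, from 84432855 to 84476775, and encodes tissue factor pathway inhibitor. The scaled FPKM was 14.9 and 11.8 in Ob, 13.4 ± 2.23 (SD, n = 2), against 6.48 and 10.2 in Ob + Exe, 8.33 ± 2.62 (SD, n = 2). Each Ob + Exe value was lower than each Ob value, and the mean was 0.623 times that of Ob. Read equivalents followed, with 2087 and 1546 in Ob against 825 and 1053 in Ob + Exe. Its log2 fold change of -0.70 (standard error 0.311, 95% interval -1.47 to 0.07) had the smallest unadjusted p of the 9 genes (0.0669, adjusted p = 0.96 in limma) and ranked 1234 among all genes tested. It shrank to -0.39 when Ob + Exe replicate 1 was left out. When Ob + Exe replicate 2 was left out it was -1.04, and only there did it pass the thresholds. Endothelium and megakaryocytes are known sources of this inhibitor, and the markers of both also had negative log2 fold changes. Of the 9 endothelial markers 9 had a negative log2 fold change, and none was at 0. Called lower were 0 of them, against 2.75% of all genes tested. The groups were separated downward for 7 of the 9, against 18.4% of all genes tested. The endothelial markers had a summed FPKM of 33.9 to 36.2 in Ob against 23.1 to 33.5 in Ob + Exe. Their sum was lowest in Ob + Exe replicate 2, while Tfpi summed over all transcripts was lowest in Ob + Exe replicate 1. The protein-coding transcripts of Tfpi alone had 14.3 and 11.5 in Ob against 5.99 and 6.04 in Ob + Exe. The part of endothelium and megakaryocytes in the Tfpi values was not tested.

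The transcripts of Tfpi differed between the groups more than their sum. Of its 10 annotated transcripts, ENSMUST00000028487.9, which starts at base 84474174, was assigned 8.94 and 7.77 scaled FPKM in the Ob libraries and was listed at 0 in both Ob + Exe libraries. The transcript ENSMUST00000111718.7, which starts farther upstream at 84475280, was assigned more in Ob + Exe, with 5.05 and 2.26 against 0.13 and 0.09 in Ob. These 2 transcripts share the same coding part of 918 bases and nearly the same 3′ end (84432860 and 84432855). Their sum came to 9.07 and 7.87 in Ob against 5.05 and 2.26 in Ob + Exe, again lower in both Ob + Exe libraries. The transcripts with a coding part of 705 bases, which end farther upstream at 84440140 or 84440723, summed to 4.78 and 3.39 in Ob against 0.942 and 3.16 in Ob + Exe, and here too both Ob + Exe libraries were lower. A noncoding transcript of 679 bases at the 3′ end, ENSMUST00000125677.1, took 40.7% of the FPKM of Tfpi in Ob + Exe replicate 2 from 154 read equivalents, and 2.21% to 7.58% in the other libraries. Summed by start site, the downstream starts between 84473784 and 84474174 held 84.7% and 94.6% of Tfpi FPKM in Ob, 0% in Ob + Exe replicate 1 and 31% in Ob + Exe replicate 2. StringTie divides reads between overlapping transcripts by a model, so these shares have an error that the tables do not give, and no test was made of them.

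RefSeq (GRCm38.p6) holds windows of 250 bases before to 50 after the start for 8 of the 9 genes, 10 windows in all, with no entry for Plau. Of the 2 windows of Tfpi, that on the minus strand at chr2:84474125-84474424 is shown because its start site is the start of ENSMUST00000028487.9, which was listed at 0 in both Ob + Exe libraries. The start of ENSMUST00000111718.7 lies in neither window. The window of Plaur (plus strand, chr7:24462233-24462532) is shown as that of the most abundant gene, and of the 2 overlapping windows of Serpinb2 that at chr1:107511260-107511559 (plus strand) is shown because it holds the starts of both of its coding transcripts. All are written 5′ to 3′. Capitals mark matches on either strand to 4 motifs. The AP-1 factors, which Fos and Jun proteins form, bind TGACTCA. Sp1 and related factors bind the GC box, here GGGCGG. The core that ETS factors recognise was searched as GAGGAA. The box near which transcription often starts was searched as TATAAA, and neighbouring matches may share a base.
Tfpi: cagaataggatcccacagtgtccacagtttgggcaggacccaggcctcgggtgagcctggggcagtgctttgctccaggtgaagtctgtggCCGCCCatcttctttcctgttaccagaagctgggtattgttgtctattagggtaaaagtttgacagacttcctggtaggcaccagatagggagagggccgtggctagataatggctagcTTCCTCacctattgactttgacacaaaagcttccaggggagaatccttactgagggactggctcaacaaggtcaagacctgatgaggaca
Plaur: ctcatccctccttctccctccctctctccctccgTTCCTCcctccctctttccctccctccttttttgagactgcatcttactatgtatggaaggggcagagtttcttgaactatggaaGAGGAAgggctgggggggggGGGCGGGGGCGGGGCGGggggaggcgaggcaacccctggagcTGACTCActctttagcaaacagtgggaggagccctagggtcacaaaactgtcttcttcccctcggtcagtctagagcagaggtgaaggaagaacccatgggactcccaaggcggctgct
Serpinb2: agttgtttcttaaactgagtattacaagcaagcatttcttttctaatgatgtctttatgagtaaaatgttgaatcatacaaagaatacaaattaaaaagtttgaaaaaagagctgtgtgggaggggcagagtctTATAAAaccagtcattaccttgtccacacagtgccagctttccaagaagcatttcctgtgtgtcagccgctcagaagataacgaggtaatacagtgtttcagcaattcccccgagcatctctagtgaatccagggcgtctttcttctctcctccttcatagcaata
The AP-1 letters were found in 3 of the 10 windows, those of F3, F2r and Plaur, and in 5.19% of all 32544 windows. GC boxes were in 6 of the 10 (35.9% of all windows), the ETS core in 4 windows of 3 genes (28.1%) and TATAAA in 4 windows of 3 genes (13.6%). In Serpinb2 1 TATAAA match lies in both of its windows, and it begins 29 bases before the start site at 107511423 and 116 before that at 107511510. A match of letters is a description of the sequence only.

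**Figure D2:**
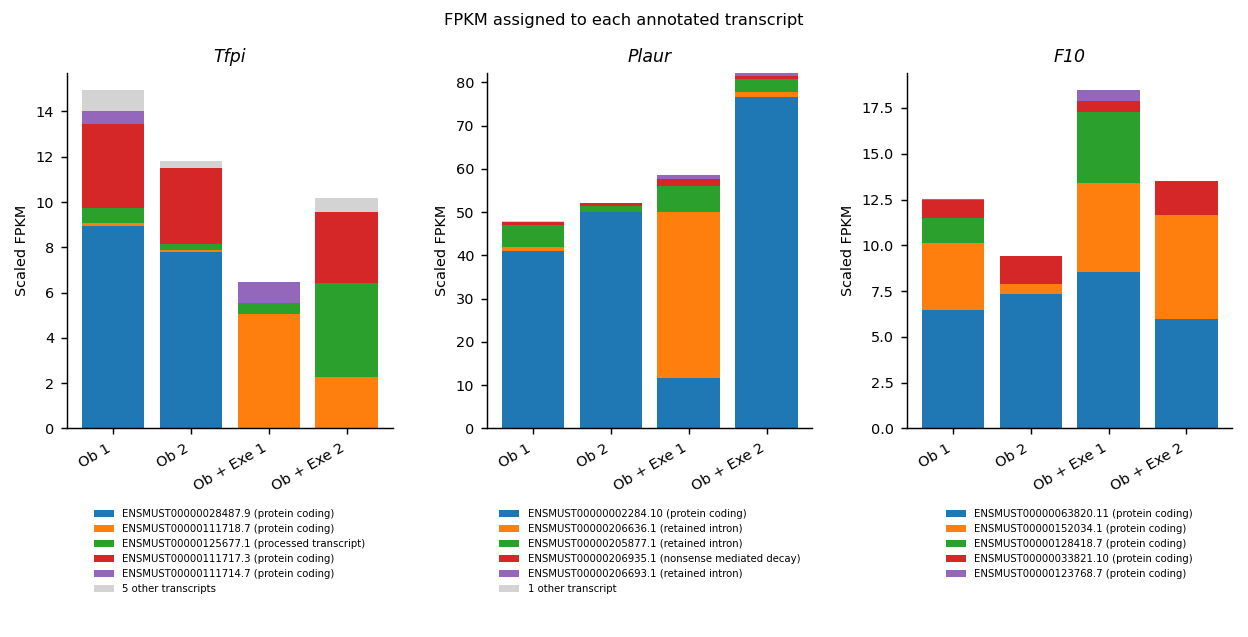
Scaled FPKM (vertical axes, from 0) that was assigned to each annotated transcript of Tfpi, Plaur and F10, stacked by library. Coloured parts are the 5 transcripts with the highest value in any library and grey is the sum of the others. The main Tfpi transcript of both Ob libraries (8.94 and 7.77) is listed at 0 in both Ob + Exe libraries, and the Plaur bar of Ob + Exe replicate 1 consists mostly of a retained-intron transcript (38.4).

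F10 (ENSMUSG00000031444.16) encodes factor X, the protease at which the routes of coagulation meet, and begins 1498 bases after the end of F7 on the plus strand of chromosome 8 (13037308 to 13056676). Its scaled FPKM was 12.5 and 9.42 in Ob, 10.98 ± 2.21 (SD, n = 2), against 18.5 and 13.5 in Ob + Exe, 16.0 ± 3.51 (SD, n = 2). Both Ob + Exe values were above both Ob values after scaling. In the FPKM as deposited, where 32.8% of all genes tested were separated, they were not, with 12.8 in Ob + Exe replicate 2 against 12.9 in Ob replicate 1. The log2 fold change was 0.54 (standard error 0.281, 95% interval -0.16 to 1.23, adjusted p = 0.96 in limma). It was 0.30 without Ob + Exe replicate 1 and 0.32 without Ob replicate 2. F10 had 5 annotated transcripts. The longest transcript, ENSMUST00000063820.11, held 51.5% and 77.7% of its FPKM in Ob against 46.3% and 44.3% in Ob + Exe. Shorter coding transcripts that start at 13037838, which the annotation flags as lacking support from mouse sequences, took most of the rest except in Ob replicate 2. The scaled FPKM of that longest transcript alone was 6.46 and 7.32 in Ob against 8.56 and 5.98 in Ob + Exe, so the groups overlapped for it and the separation of the gene's sum rests on the other transcripts.

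The neighbours of F10 were read beside it, because F7, F10 and Proz follow each other in the same orientation and all encode vitamin K-dependent proteins of the clotting system. Proz, the gene of protein Z, a cofactor in the inhibition of factor X, begins 4237 bases after the end of F10. It had 0.372 and 0.665 scaled FPKM in Ob against 1.76 and 1.23 in Ob + Exe, and it passed the thresholds with a difference of 1.39 on the log2 scale (standard error 0.533) and an adjusted p of 0.96 in limma. Proz was not called at a minimum mean FPKM of 1, without the minimum, with a pseudocount of 1, without scaling, with the replicate block, or with any 1 library left out. All 3 genes of this cluster were separated upward between the groups, as were 14.3% of all genes tested, and only Proz was called. For F7 Ob + Exe replicate 2 had 21 read equivalents, against 17 and 16 in Ob. F10 was not separated in the FPKM as deposited. The protein-coding genes on both sides of the cluster overlapped between the groups, with log2 fold changes of 0.07 for Mcf2l and -0.06 for Pcid2.

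F5 (ENSMUSG00000026579.8) encodes factor V, the cofactor of factor X, on the plus strand of chromosome 1 from 164151838 to 164220277. It rested on at least 3215 read equivalents in every library, and its single annotated transcript had 10.2 and 7.25 scaled FPKM in Ob against 7.33 and 9.43 in Ob + Exe. The groups overlapped, and the log2 fold change was -0.05 (standard error 0.296, 95% interval -0.78 to 0.68). Its sign was the opposite without Ob replicate 1 (0.19) or without Ob + Exe replicate 1 (0.12). The antisense gene Gm16548 overlaps the first 380 bases of F5, and the library kit did not mark strand, but it held only 47 to 60 read equivalents. Selp, the gene of P-selectin that platelets and endothelium carry, ends 1811 bases before F5. It also overlapped between the groups, with 3.43 and 1.89 in Ob against 1.17 and 2.32 in Ob + Exe.

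F2r (ENSMUSG00000048376.6), on the minus strand of chromosome 13 from 95601803 to 95618487, encodes the thrombin receptor PAR1. Its scaled FPKM was 3.39 and 1.79 in Ob against 1.17 and 2.63 in Ob + Exe, and the groups overlapped. A log2 fold change of -0.46 (standard error 0.547, 95% interval -1.81 to 0.89) became 0.08 without Ob + Exe replicate 1. Mouse platelets respond to thrombin through other receptors of this family, PAR3 (F2rl2) and PAR4 (F2rl3), and both passed the thresholds downward. F2rl2 had 11.7 and 7.93 in Ob against 5.57 and 2.87 in Ob + Exe, or -1.25 on the log2 scale (standard error 0.409), with an adjusted p of 0.96 in limma. F2rl3 had 3.02 and 1.73 in Ob and 1.002 in Ob + Exe replicate 1, and it was listed at 0 in Ob + Exe replicate 2. The log2 fold change of F2rl3, -2.85 (adjusted p = 0.96 in limma), depends on the added 0.1. F2rl3 was not called at a minimum mean FPKM of 1, without the minimum or with a pseudocount of 0.01. Without the intensity trend neither F2rl2 nor F2rl3 was called. All 10 markers of megakaryocytes and platelets also had a negative log2 fold change, and none was at 0. Of these 4 were called, against 2.75% of all genes tested called lower. The groups were separated downward for 7 of the 10 and upward for 0, against 18.4% and 14.3% of all genes tested. The summed FPKM of the 10 markers overlapped between the groups, with 498 and 365 in Ob against 391 and 151 in Ob + Exe. Pf4 (51.2 to 155) and Ppbp (48.2 to 213), which both overlapped, made up most of this sum. The part of megakaryocytes and platelets in the lower values of F2rl2 and F2rl3 was not tested.

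Plau (ENSMUSG00000021822.3), the gene of urokinase, lies on the plus strand of chromosome 14 from 20836660 to 20843385. Nearly all of its reads were assigned to its coding transcript. The scaled FPKM was 9.40 and 8.11 in Ob, 8.76 ± 0.916 (SD, n = 2), against 11.6 and 12.3 in Ob + Exe, 11.9 ± 0.480 (SD, n = 2). Both Ob + Exe libraries were above both Ob libraries, a ratio of means of 1.36, with 1271 to 1604 read equivalents behind each value. This gave a log2 fold change of 0.45 (standard error 0.237, 95% interval -0.14 to 1.03) with an adjusted p of 0.96 in limma, and it stayed between 0.33 and 0.55 when each library was left out in turn.

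Plaur (ENSMUSG00000046223.10), on the plus strand of chromosome 7 from 24462484 to 24475968, encodes the urokinase receptor. It had 47.9 and 52.1 scaled FPKM in Ob, 49.99 ± 2.98 (SD, n = 2), against 58.7 and 82.1 in Ob + Exe, 70.4 ± 16.6 (SD, n = 2). Both Ob + Exe values were higher, and the spread of Ob + Exe was larger than that of Ob. For the sum of its transcripts the log2 fold change was 0.47 (standard error 0.238, 95% interval -0.11 to 1.06, adjusted p = 0.96 in limma), and it was 0.22 without Ob + Exe replicate 2 and 0.70 without Ob + Exe replicate 1. The 2 Ob + Exe libraries differed in how this sum was made up. The transcript that encodes the receptor, ENSMUST00000002284.10 with a coding part of 981 bases, was assigned 41.0 and 49.9 in Ob, 11.6 in Ob + Exe replicate 1 and 76.7 in Ob + Exe replicate 2. In Ob + Exe replicate 1 the transcript ENSMUST00000206636.1, which keeps an intron and has no coding part in the annotation, held 38.4 and thus 65.5% of the gene, against 0.304% to 1.94% in the other 3 libraries. For the coding transcript the groups therefore overlapped, and the separation of Plaur holds for the sum of all 6 transcripts only. The read equivalents of the whole gene were 4685 and 5157 for Ob, and 5981 and 6632 for Ob + Exe.

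Serpinb2 (ENSMUSG00000062345.10) encodes plasminogen activator inhibitor type 2 and lies on the plus strand of chromosome 1, from 107511423 to 107535478. Its scaled FPKM was 2.85 and 1.31 in Ob, 2.08 ± 1.09 (SD, n = 2), against 1.08 and 0.445 in Ob + Exe, 0.760 ± 0.446 (SD, n = 2). The Ob + Exe values were the lower 2 of the 4, the mean was 0.365 times that of Ob, and read equivalents were 388 and 174 against 127 and 49. The log2 fold change of -1.35 (standard error 0.621, 95% interval -2.89 to 0.18, adjusted p = 0.96 in limma) was larger in size than that of F7 in this fit, but smaller with a pseudocount of 0.01 (-1.47 against 1.63), with quantile normalization (-1.30 against 1.76) and with limma voom (-1.45 against 1.71). Leaving out Ob + Exe replicate 2 gave -0.81, leaving out Ob replicate 1 gave -0.83, and the range over the 4 libraries reached -1.92. With the replicate number of the labels as a block its unadjusted p was 0.0493 in limma, which passes the thresholds, while its adjusted p was 0.9999. The same coding part of 1245 bases is shared by 2 transcripts that start at 107511423 and 107511497. The first of them, ENSMUST00000009356.10, had 0.303 and 0.977 in Ob and was listed at 0 in both Ob + Exe libraries. Its share of Serpinb2 also differed within Ob, with 10.6% in replicate 1 and 74.3% in replicate 2. As for Tfpi, such shares come from the model of StringTie and were not tested. The span of Serpinb2 overlaps Serpinb10 only through 2 transcripts annotated for nonsense-mediated decay, which were listed at 0 in all 4 libraries. Set against its target, Plau exceeded Serpinb2 by 3.30- and 6.17-fold in Ob against 10.8- and 27.6-fold in Ob + Exe, values that follow from the 2 genes' own levels above.

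**Figure D3:**
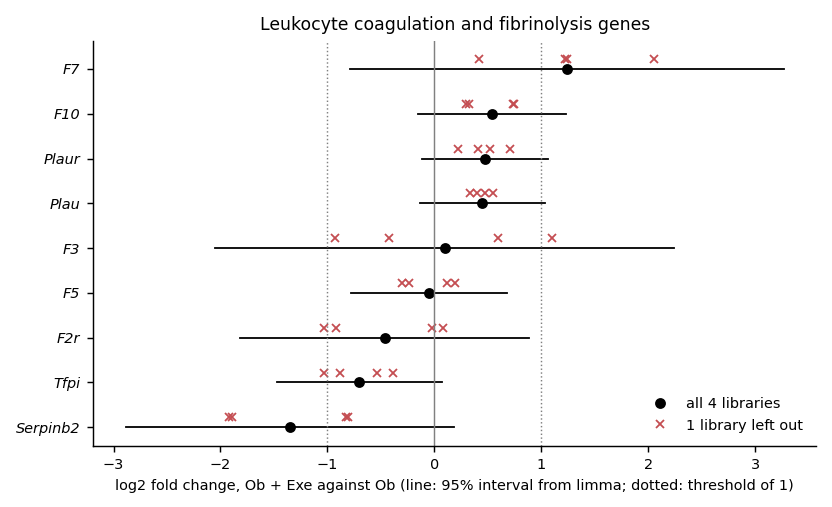
Log2 fold change of Ob + Exe against Ob for the 9 genes (horizontal axis), with the 95% interval from limma as a line. Crosses are the values with each of the 4 libraries left out and dotted lines mark the threshold of 1. Every interval includes 0, and the crosses fall on both sides of 0 for F3, F5 and F2r.

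The other genes of the pathway give the setting of these 9. A list of 47 further coagulation and fibrinolysis genes held 29 that reached a mean of 0.1 FPKM and were tested. Of these 19 had a positive and 10 a negative log2 fold change, with a median of 0.15 against -0.02 over all genes tested, and 3 were called (F2rl2 and F2rl3 lower, Proz higher). These 3 calls compare with 2.75% of all genes tested called lower and 0.995% called higher. They depended on single libraries, with 0 genes of the list called without Ob replicate 2 or without Ob + Exe replicate 2. Without Ob replicate 1 only Serpinc1, the gene of antithrombin, was called. Without Ob + Exe replicate 1 the 4 called were F2rl2, F2rl3, Vwf and Thbs1, the gene of thrombospondin.

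Several genes that the cascade needs were at or near 0. The 3 fibrinogen chains (Fga, Fgb and Fgg), factor XI (F11), protein C (Proc), protein C inhibitor (Serpina5) and plasminogen (Plg) were listed at 0 in all 4 libraries. Prothrombin (F2) and factor IX (F9) were below the minimum, with at most 18 and 11 read equivalents. Of 6 hepatocyte markers 1 was tested, and their summed FPKM was at most 0.388. Factor XIII subunit A (F13a1) crosslinks fibrin and is made by monocytes and megakaryocytes. It was the most abundant clotting factor, with 70.0 and 59.8 in Ob against 75.6 and 71.3 in Ob + Exe. Its log2 fold change of 0.18 (standard error 0.200) was far from the threshold. F13a1 was separated upward after scaling, as were 14.3% of all genes tested. In the FPKM as deposited it was not, with 67.4 in Ob + Exe replicate 2 against 72.1 in Ob replicate 1. Von Willebrand factor (Vwf), from megakaryocytes and endothelium, had 7.23 and 10.3 in Ob against 9.03 and 2.74 in Ob + Exe, and only Ob + Exe replicate 2 stood apart. Kng2, a kininogen gene, followed with 1.67 to 3.52 over the 4 libraries.

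Of the receptors and inhibitors, thrombomodulin (Thbd) had 6.08 and 5.54 in Ob against 5.38 and 5.14 in Ob + Exe, and Lrp1, a scavenger receptor that clears protease complexes, had 4.67 and 5.70 against 4.80 and 4.17. Thbd was separated downward, as were 18.4% of all genes tested, and Lrp1 overlapped. Their log2 fold changes of -0.14 and -0.20 did not pass. Protein S (Pros1), a cofactor of protein C and of the tissue factor inhibitor, ranged from 3.63 to 5.81, and Tfpi2 from 0.210 to 0.713, both with overlap between the groups. Among the fibrinolysis genes the highest were Anxa2 and S100a10, whose products bind plasminogen and its activator together at the cell surface. Anxa2 had 168 and 134 in Ob against 139 and 169 in Ob + Exe, and S100a10 had 69.5 and 69.6 against 83.3 and 71.4. Of these S100a10 alone was separated, upward, as were 14.3% of all genes tested. In the FPKM as deposited it was not, with 67.5 in Ob + Exe replicate 2 against 71.5 and 72.5 in Ob. The plasminogen receptor gene Plgrkt ranged from 31.0 to 61.0, with both extremes in Ob + Exe. The genes that modify or export clotting factors, among them Vkorc1 and Vkorc1l1 of the vitamin K cycle and Mcfd2 of factor V transport, had log2 fold changes of -0.13, 0.00 and 0.17, and 0 of the 6 were called.

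**Figure D4:**
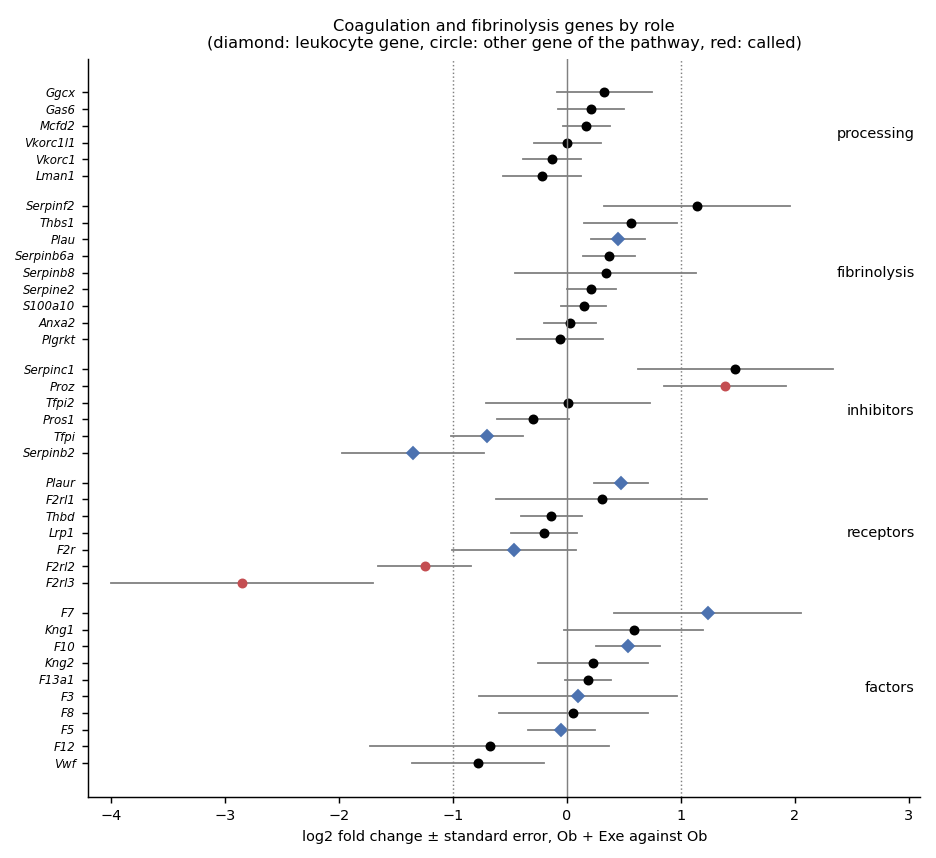
Log2 fold change ± standard error (horizontal axis, Ob + Exe against Ob) of the 9 leukocyte genes (diamonds) and the 29 other genes of the pathway that were tested (circles), grouped by role. Red marks the 3 called genes, F2rl3, F2rl2 and Proz, and dotted lines mark the threshold of 1.

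Markers of the cells that could hold these transcripts were compared between the same libraries. Monocyte markers are the ones most closely tied to the urokinase system and tissue factor, and their summed FPKM overlapped between the groups, with 556 and 509 in Ob against 516 and 565 in Ob + Exe. Ly6c2 alone made up 249 to 333 of it. Of the 10 monocyte genes 4 had a positive and 6 a negative log2 fold change, and 0 were called. The groups were separated upward for 3 of them (Ccr2, Ms4a6c and Ly86) and downward for 2 (Klf4 and Cd300e). Klf4 alone, with 0.544 times the Ob mean, had an unadjusted p under 0.05 in limma. Ly86 was not separated in the FPKM as deposited, with 29.4 in Ob + Exe replicate 2 against 30.6 and 31.2 in Ob. The 10 macrophage markers summed to 112 and 131 in Ob against 136 and 116 in Ob + Exe, also with 4 positive, 6 negative and 0 called. Of them 2 were separated upward (Adgre1 and Vcam1) and 4 downward. Vcam1 was not separated in the FPKM as deposited, with 36.3 in Ob + Exe replicate 2 against 36.9 and 36.7 in Ob. For comparison with both lists, 14.3% of all genes tested were separated upward and 18.4% downward. Timd4 was listed at 0 in Ob + Exe replicate 1. The part of monocytes and macrophages in the values of Plau and Plaur was not tested. The neutrophil markers ranged more widely, from 27121 in Ob replicate 2 to 63417 in Ob + Exe replicate 2, and 9 of the 10 had a positive log2 fold change with 0 called. S100a8 (11904 to 35866) and S100a9 (9598 to 18287) made up most of this sum, which was second highest in Ob replicate 1. Summed over its transcripts, Plaur was highest in Ob + Exe replicate 2 and lowest in Ob replicate 1. Its coding transcript was highest in Ob + Exe replicate 2 (76.7) and lowest in Ob + Exe replicate 1 (11.6). The part of neutrophils in the Plaur values was not tested.

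**Figure D5:**
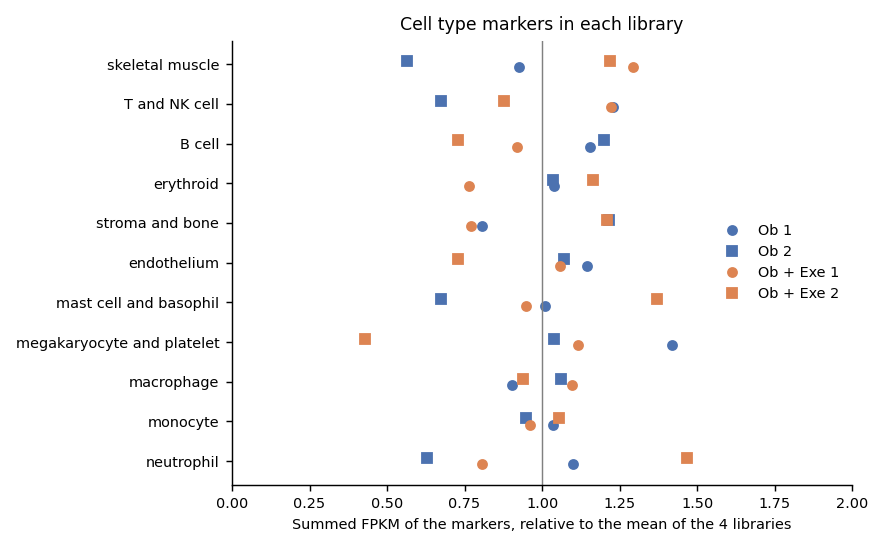
Summed scaled FPKM of hand-written cell type markers in each library, divided by the mean of the 4 libraries (horizontal axis). Blue points are Ob and orange points Ob + Exe, with circles for replicate 1 and squares for replicate 2. The monocyte and macrophage sums stay between 0.903 and 1.10 times their mean, while the megakaryocyte and platelet sum reaches 0.429 in Ob + Exe replicate 2.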

How the data were processed

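RNA-seq was performed on whole tibial bone marrow, with 2 Ob and 2 Ob + Exe libraries. Per the labels and the study's methods, the authors used fastp, removed rRNA reads, aligned with HISAT2 to GRCm38, filtered the alignments in SAMtools and used StringTie to quantify the transcripts of GENCODE vM25, with versions not given in the sources used here. The authors deposited, per transcript, read coverage (a signal not scaled for depth) and FPKM. All values come from these 2 columns. Coverage does not give whole reads (3.58% to 5.36% of values lay within 0.01 of one), so the DESeq2 test of the authors was not repeated.

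Transcript FPKM were summed to genes, and 18596 genes with a mean of at least 0.1 were kept. Libraries were scaled by median-of-ratios, and after adding 0.1 their log2 values entered limma 3.58.1 (lmFit and eBayes with an intensity trend, 2 residual and 3.79 prior degrees of freedom) in R 4.3.3. Intervals are from the same fit. Data of this comparison were simulated (18584 and 18583 genes) at biological coefficients of variation of 0.1 and 0.3, the same in both groups. In them 200 genes, drawn only from those above a minimum mean of read equivalents, were changed by 2 on the log2 scale. Of these 97.5% and 95.5% were called, and so were 0.549% and 2.671% of the unchanged genes. These rates need not hold for genes with standard errors as large as those of F3 (0.868) and F7 (0.821). Nor do they apply to changes below 2, and the largest log2 fold change of the 9 genes in size was -1.35 (Serpinb2). The genes and lists were chosen, and the lists written by hand from general knowledge, with earlier results of these data known. Named were the 9 genes and, of the other pathway genes, those called, the 3 highest of each role and those listed at 0 in all libraries. F2, F9, Mcf2l, Pcid2, Selp, Serpinb10, Gm16548, Serpinc1, Thbs1 and the named markers were chosen after their values were seen. Whether the libraries come from single mice beyond the group sizes is not stated, and p-values measure the spread between these libraries. As alternatives the minimum and the pseudocount were varied, scaling was dropped or replaced by quantile normalization, limma voom was used, the trend was left out, the replicate number was a block, and each library was left out in turn. Transcript types and coding parts are from GENCODE vM21 (GRCm38), where all 34 transcripts of the 9 genes have the same coordinates. Tables were handled with pandas 2.3.3 in Python 3.11.15.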

Additional observations from a re-analysis of the deposited data

How the results depend on the processing

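None of the 9 genes was called in the reported fit or under 8 of the 9 alternatives that keep all libraries. The exception was the replicate block, with 1 called (Serpinb2). With 1 library left out the count ranged from 0 to 2, the 2 being F7 and Tfpi without Ob + Exe replicate 2. The log2 fold change kept its sign under every alternative tried for F7, F10, Plau, Plaur, Serpinb2 and Tfpi. It turned for F3 (-0.928 to 1.099 with 1 library left out), F5 (-0.302 to 0.188) and F2r (-1.03 to 0.077). F3 and F7 were not tested at a minimum mean FPKM of 1. Of the other pathway genes 3 were called, against 1 at that minimum, 1 without the intensity trend and 0 to 4 with 1 library left out. Over all genes the 696 calls became 270 at a minimum of 1, 222 with a pseudocount of 1, 460 with limma voom, 1059 without the trend and 746 to 1921 with 1 library left out. The replicate numbers of the labels share no stated origin, and across genes the difference between replicates 1 and 2 in Ob correlated with that in Ob + Exe at -0.106. With the replicate block 744 genes were called, and with the crossed pairing, added after seeing the data, 802 in all and 0 of the 9. An adjusted p under 0.05 in limma was reached by 18 genes with the block and 11 with the crossed pairing, 0 of the 9 among them. Genes with few read equivalents, such as F7 with 16 to 93, are the ones whose values depth limits.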
